A study of Rattus norvegicus with 22 samples.

Results

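Immediate early genes are switched on within minutes of a stimulus, without new protein synthesis. 10 of them were followed here in rat lung after pulmonary embolism (PE): Egr1, Egr2, Egr3, Nr4a1, Nr4a2, Nr4a3, Ier2, Ier3, Myc and Klf4. All probesets carrying 1 of these gene symbols were taken, which gave 14 probesets of 10 genes, out of 31042 probesets and 14217 named genes on the array. Each gene was represented by its probeset of highest mean signal, and the 4 further probesets are given beside it. Lung tissue RNA of 22 male Sprague–Dawley rats was measured on Affymetrix rat arrays, 1 array per rat. The sample records give a weight of about 350 g, whereas the published methods give a higher range. Polystyrene microspheres of 25 micron were injected into the jugular vein to lodge in the lung arteries, and the lungs were lavaged with 8 ml of saline before they were taken at 2 h or 18 h. Vehicle rats received 0.15 ml per 100 g of 0.01% Tween-20. Mild PE rats received 0.10 ml per 100 g of a 10% suspension, 1300000 microspheres per 100 g, and Severe PE rats received 0.15 ml per 100 g, 2000000 microspheres per 100 g. Each time had 3 rats given Vehicle, 4 given the Mild PE dose and 4 given the Severe PE dose. Polystyrene microspheres block vessels mechanically and, unlike a clot, do not dissolve.

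The Egr proteins are zinc finger transcription factors that bind GC-rich sites and are induced through serum response factor, which binds CArG boxes together with Elk-type partners. The Nr4a proteins are orphan nuclear receptors whose activity is set mainly by how much of them is made, and their promoters carry sites for CREB. In vessels and lung these genes are known to respond to stretch, shear, low oxygen, cytokines and growth factors, and their transcripts are short-lived.

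Promoter sequences of rat genes from RefSeq (build GRCr8) were matched by symbol, and 6 of the 10 genes (Egr1, Egr2, Nr4a1, Nr4a2, Ier2 and Klf4) were found among 33469 promoters. The 250 bases before each start were searched on both strands. The 150 bases nearest the start of Egr2, Nr4a1, Ier2 and Klf4 are printed because these genes stood higher in every PE rat than in every Vehicle rat at 2 h, together with the 2 CArG boxes of Egr1, the only gene called changed at both doses at that time. Capitals mark CArG boxes, the CRE palindrome TGACGTCA and its shorter core TGACG, which reads CGTCA when it lies on the other strand. A match to the palindrome always holds matches to the core. Each sequence runs 5′ to 3′ on the strand of its gene.
Egr1, first CArG box, chr18:26736968-26736987, plus strand: tccttCCATATTAGGgcttc
Egr1, next CArG box, chr18:26736990-26737009, plus strand: gcttcCCATATATGGccatg
Egr2, chr20:21054442-21054591, minus strand: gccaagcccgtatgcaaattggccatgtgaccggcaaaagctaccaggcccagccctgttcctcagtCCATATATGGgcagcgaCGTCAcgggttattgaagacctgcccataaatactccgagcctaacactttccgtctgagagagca
Nr4a1, chr7:134259988-134260137, plus strand: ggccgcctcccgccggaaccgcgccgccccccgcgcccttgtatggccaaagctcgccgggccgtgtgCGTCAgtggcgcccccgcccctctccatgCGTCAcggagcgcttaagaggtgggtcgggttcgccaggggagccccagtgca
Ier2, chr19:40399223-40399372, plus strand: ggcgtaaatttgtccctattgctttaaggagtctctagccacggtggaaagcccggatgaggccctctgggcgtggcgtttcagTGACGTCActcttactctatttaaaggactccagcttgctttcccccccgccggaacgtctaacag
Klf4, chr5:75078593-75078742, minus strand: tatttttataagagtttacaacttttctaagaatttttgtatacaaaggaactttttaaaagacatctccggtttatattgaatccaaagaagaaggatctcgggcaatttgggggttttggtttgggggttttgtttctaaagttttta

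The CArG box was matched in Egr1 and Egr2, at 105 and 83 bases before the start of Egr1 and at 83 bases before the start of Egr2. It was matched in 1.5% of all promoters searched. The core TGACG was matched 2 times in Egr1, 1 time in Egr2, 4 times in Nr4a1, 1 time in Nr4a2 and 2 times in Ier2, and in 18.2% of all promoters. The palindrome TGACGTCA was matched once among these promoters, in Ier2 at 66 bases before the start, and in 1.59% of all promoters. Nr4a1 also held 1 match to the Egr-type site GCGGGGGCG (2.45% of all promoters) and 1 match to a kB site (3.54%). Klf4 held 2 matches to TATAAA (12.9%), both on the strand opposite to the gene, so that they read TTTATA in the letters printed. The Egr site GCGTGGGCG (0.478% of all promoters), the Nr4a site AAAGGTCA (1.24%) and the E-box CACGTG (5.59%) were not among the letters of these 6 windows. These matches describe sequence and are not evidence of binding. The starts are those of the RefSeq entries and were not checked, so a window, that of Klf4 among them, may hold transcribed sequence.

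Levels are given on a log2 scale after quantile normalization, with deposited signals under 16 set to 16, so that 4 is the lowest value possible. Differences are log2 differences with their standard error (SE), and a probeset was called changed where a limma fit of the 2 groups compared gave an adjusted p (Benjamini-Hochberg, over all 31042 probesets) under 0.05 and the means differed 1.5-fold or more. All 8 lung epithelium markers lay between the 96.73 and the 99.98 percentile of mean signal. The gap between 3′ and 5′ Gapdh control signals was widest on 4 arrays, at 0.525 (log2) in rat 1 of 2-h Severe PE, 0.491 in rat 4 of 18-h Mild PE, 0.638 in rat 1 of 18-h Vehicle and 0.346 in rat 3 of 2-h Vehicle, against 0.176 to 0.322 on the other 18. These are called the arrays of low 5′ signal. In whole lung, more RNA per cell and more cells of a type cannot be told apart. The Mild PE and Severe PE comparisons of a time share its 3 Vehicle rats.

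**Figure D1:**
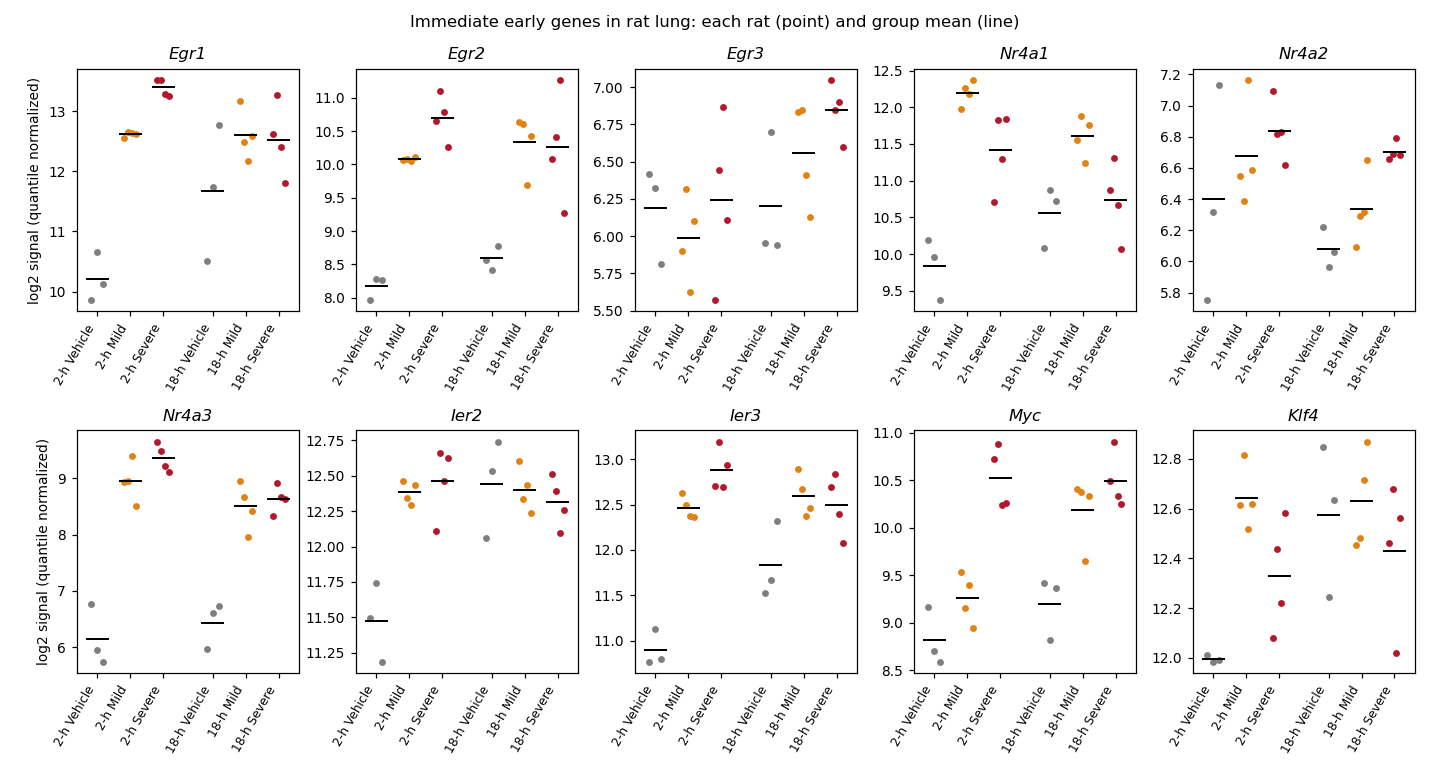
Log2 signal (y axis, quantile normalized, a separate scale in each panel) of the 10 genes in each rat, by group along the x axis, with points for rats and black lines for group means (n = 3 Vehicle, 4 Mild PE, 4 Severe PE at each time). At 2 h the Egr1 points step up with dose around means of 10.21, 12.61 and 13.39, whereas the Nr4a1 mean is highest in Mild PE at 12.20.

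At 2 h, 6 of the 10 genes rose in Mild PE (Egr1, Egr2, Nr4a1, Nr4a3, Ier3 and Klf4), by 1.57-fold to 6.98-fold, and none fell. Over all probesets 0.251% were called higher in that comparison. In Severe PE only Egr1 was called, where 0.0226% of all probesets were called higher. In the Severe PE comparison only 7 probesets of the whole array passed. Whole groups stood apart more often than calls were made. All Mild PE rats lay above all Vehicle rats for 7 of the 10 genes, against 6.58% of all probesets, and all Severe PE rats lay above all Vehicle rats for 8 of the 10, against 3.77% of all probesets.

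Egr1, the best-known member of its family, had log2 levels of 9.85, 10.66 and 10.12 in 2-h Vehicle rats, of 12.55, 12.66, 12.63 and 12.61 in 2-h Mild PE rats and of 13.51, 13.52, 13.28 and 13.25 in 2-h Severe PE rats. The 3 groups did not overlap, and the 4 Mild PE rats lay close together (SD 0.04). The difference from Vehicle was 2.40 (SE 0.19, 5.28-fold, adjusted p = 0.0204) in Mild PE and 3.18 (SE 0.20, 9.06-fold, adjusted p = 0.0254) in Severe PE. Severe PE also stood above Mild PE, by 0.78 (SE 0.08, 1.72-fold, adjusted p = 0.0148). It was the only one of the 10 genes called between the doses, where 0.248% of all probesets were called higher.

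Egr2, which in other tissues is known for its part in myelination and in immune tolerance, had levels of 7.96, 8.28 and 8.27 in Vehicle rats, of 10.07, 10.08, 10.05 and 10.11 in Mild PE rats and of 10.66, 11.10, 10.78 and 10.26 in Severe PE rats at 2 h. Again no group overlapped another. Egr2 rose in Mild PE by 1.91 (SE 0.09, 3.75-fold, adjusted p = 0.00467), the smallest adjusted p of the 10 genes in that comparison. In Severe PE the larger difference of 2.53 (SE 0.21, 5.78-fold) did not pass (adjusted p = 0.0608). Its second probeset, 1398266_a_at, was near the floor in Vehicle rats (4.69, 5.04 and, in rat 2, the floor of 4), and neither its difference of 0.48 in Mild PE nor that of 1.54 in Severe PE passed. Egr3, the family member best known from brain and lymphocytes, was dim, with levels between 5.57 and 6.86 at 2 h. Its differences were −0.20 (95% interval −0.74 to 0.34) in Mild PE and 0.06 (−0.77 to 0.89) in Severe PE.

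Nr4a1, also called Nur77, had its highest mean at the milder dose. Its levels were 10.19, 9.96 and 9.37 in Vehicle rats, 11.98, 12.26, 12.18 and 12.38 in Mild PE rats and 10.71, 11.82, 11.30 and 11.85 in Severe PE rats at 2 h. Every PE rat was above every Vehicle rat, and every Severe PE rat was below every Mild PE rat. Nr4a1 rose in Mild PE by 2.36 (SE 0.21, 5.13-fold, adjusted p = 0.0268), while the Severe PE difference of 1.58 (SE 0.35, 2.98-fold) did not pass (adjusted p = 0.330). The difference of Severe PE from Mild PE, −0.78 (95% interval −1.41 to −0.15), did not pass either (adjusted p = 0.291). Severe PE rat 1, the lowest of its group, was 1 of the 4 arrays with low 5′ signal.

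Nr4a3, or NOR-1, had the largest difference of the 10 genes at 2 h. Its levels were 6.77, 5.95 and 5.73 in Vehicle rats, 8.93, 8.96, 9.40 and 8.51 in Mild PE rats and 9.66, 9.49, 9.21 and 9.12 in Severe PE rats. It rose in Mild PE by 2.80 (SE 0.32, 6.98-fold, adjusted p = 0.0433), and its Severe PE difference of 3.22 (SE 0.28, 9.33-fold) had an adjusted p of 0.0661. A second probeset, 1393389_at, differed by 1.31 in Mild PE (adjusted p = 0.0822) and by 1.91 in Severe PE (adjusted p = 0.0886), without overlap with Vehicle in either group. The third, 1369217_at, was dim, with differences of 0.18 and 0.71. Nr4a2, or Nurr1, best known for its need in dopamine neurons, lay between 5.75 and 7.17 at 2 h, and its differences of 0.28 (95% interval −0.63 to 1.18) in Mild PE and 0.44 (−0.37 to 1.26) in Severe PE did not pass. Its other probeset, 1387410_at, reached the floor of 4 in Vehicle rat 2 and Severe PE rat 2.

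Ier3, a small protein that modulates cell survival and NF-kB signalling, had levels of 10.76, 11.13 and 10.80 in Vehicle rats, of 12.63, 12.50, 12.38 and 12.36 in Mild PE rats and of 12.71, 13.20, 12.70 and 12.94 in Severe PE rats. Its 3 groups did not overlap. It rose in Mild PE by 1.57 (SE 0.12, 2.97-fold, adjusted p = 0.0204), and in Severe PE the difference was 1.99 (SE 0.16, 3.97-fold, adjusted p = 0.0608). Ier2, a nuclear immediate early protein, had levels of 11.50, 11.74 and 11.18 in Vehicle rats, of 12.46, 12.34, 12.29 and 12.43 in Mild PE rats and of 12.11, 12.66, 12.46 and 12.62 in Severe PE rats. Both PE groups lay above Vehicle and overlapped each other. The Ier2 differences of 0.91 (SE 0.14, adjusted p = 0.0799) in Mild PE and 0.99 (SE 0.19, adjusted p = 0.246) in Severe PE did not pass.

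Klf4, a Krüppel-like factor of epithelium and vessel wall, moved least among the genes called. Its levels were 12.01, 11.98 and 11.99 in Vehicle rats, 12.62, 12.81, 12.52 and 12.62 in Mild PE rats and 12.08, 12.44, 12.22 and 12.58 in Severe PE rats at 2 h. It rose in Mild PE by 0.65 (SE 0.07, 1.57-fold, adjusted p = 0.0433), and its Severe PE difference was 0.33 (SE 0.13, adjusted p = 0.623). As for Nr4a1, the Mild PE mean was the higher, although the difference of Severe PE from Mild PE, −0.31 (95% interval −0.61 to −0.02), did not pass (adjusted p = 0.369).

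Myc, the growth-promoting transcription factor, had its highest 2-h mean in Severe PE. Its levels were 9.17, 8.70 and 8.58 in Vehicle rats, 9.53, 9.16, 9.40 and 8.95 in Mild PE rats and 10.73, 10.88, 10.24 and 10.26 in Severe PE rats at 2 h. Mild PE overlapped Vehicle (difference 0.44, SE 0.20, adjusted p = 0.425), whereas no Severe PE rat overlapped either group. The differences of Severe PE were 1.71 from Vehicle (SE 0.23, 3.27-fold, adjusted p = 0.135) and 1.27 from Mild PE (SE 0.20, 2.41-fold, adjusted p = 0.0581), and neither passed. On the log2 scale the Mild PE difference made up 25.8% of the Severe PE difference for Myc, against 75.5% for Egr1, 75.4% for Egr2, 87.0% for Nr4a3, 78.9% for Ier3 and 92.0% for Ier2. Between the doses at 2 h, all Severe PE rats lay above all Mild PE rats for 4 genes, Egr1, Egr2, Ier3 and Myc, against 3.45% of all probesets, and below them for 1, Nr4a1, against 4.05% of all probesets.

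Calls at 2 h depended on single rats, over the whole array as well. With 1 rat left out, 13 to 128 probesets were called in Mild PE (103 with all rats) and 0 to 16 in Severe PE (7 with all rats). The differences of the 6 genes called in Mild PE kept their sign under every alternative. Leaving out any of the 4 Mild PE rats left 1 gene called in Mild PE, Egr2, and leaving out Vehicle rat 1, 2 or 3 left 5, 3 or 4. In Severe PE no gene was called without Vehicle rat 3 or without any of the Severe PE rats, 2 were called without Vehicle rat 1, and 7 were called in 1 fit on all 22 arrays (Egr1, Egr2, Nr4a1, Nr4a3, Ier2, Ier3 and Myc). Between the doses Egr1 lost its call without any of the 4 Mild PE rats.

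**Figure D2:**
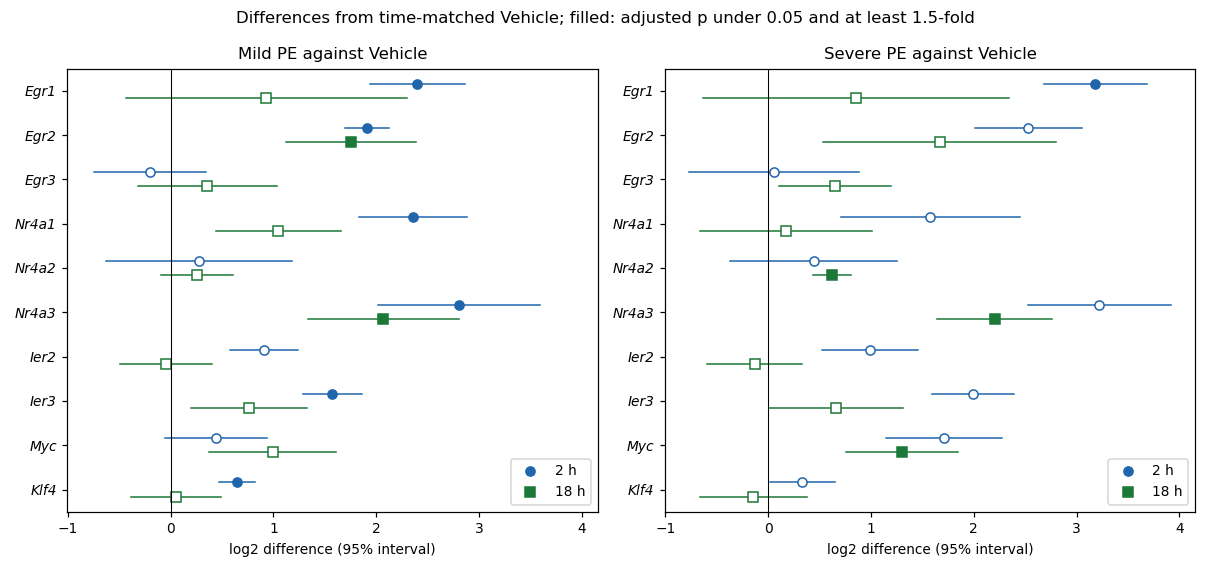
Log2 difference from the Vehicle rats of the same time (x axis) for each of the 10 genes (y axis), Mild PE on the left and Severe PE on the right, with circles for 2 h, squares for 18 h, lines for 95% intervals and filled symbols for genes called changed. In Mild PE 6 circles and 2 squares are filled, in Severe PE 1 circle and 3 squares.

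At 18 h, 2 of the 10 genes were called in Mild PE and 3 in Severe PE. Egr2 and Nr4a3 rose in Mild PE, where 0.506% of all probesets were called higher. Myc, Nr4a2 and Nr4a3 rose in Severe PE, where 3.21% of all probesets were called higher. Nr4a3 was thus called at both doses, and no gene fell. All Mild PE rats lay above all Vehicle rats for 5 genes (Egr2, Nr4a1, Nr4a3, Ier3 and Myc), against 7.79% of all probesets, and all Severe PE rats did so for 4 genes (Egr2, Nr4a2, Nr4a3 and Myc), against 11.2% of all probesets.

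Nr4a3 had levels of 5.97, 6.60 and 6.73 in 18-h Vehicle rats, of 8.96, 8.68, 7.96 and 8.41 in 18-h Mild PE rats and of 8.34, 8.92, 8.67 and 8.64 in 18-h Severe PE rats. Every PE rat lay more than 1 log2 unit above every Vehicle rat. The differences were 2.07 (SE 0.30, 4.19-fold, adjusted p = 0.0479) in Mild PE and 2.20 (SE 0.23, 4.61-fold, adjusted p = 0.00923) in Severe PE. Its second probeset, 1393389_at, also rose, by 1.49 (adjusted p = 0.0420) in Mild PE and by 1.56 (adjusted p = 0.0104) in Severe PE. Nr4a2 had levels of 6.22, 5.96 and 6.06 in Vehicle rats, of 6.09, 6.29, 6.32 and 6.65 in Mild PE rats and of 6.66, 6.69, 6.79 and 6.68 in Severe PE rats. These are low signals with a narrow spread in Severe PE, where the difference was 0.62 (SE 0.08, 1.54-fold, adjusted p = 0.0124). The other Nr4a2 probeset differed by 0.48 (adjusted p = 0.353) and was at or near the floor in most rats at 18 h.

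Nr4a1 again had its higher mean in Mild PE. Its 18-h levels were 10.08, 10.88 and 10.72 in Vehicle rats, 11.56, 11.88, 11.24 and 11.75 in Mild PE rats and 10.87, 11.31, 10.67 and 10.07 in Severe PE rats. The Vehicle rats lay within the range of the Severe PE rats, with a difference of 0.17 (95% interval −0.67 to 1.01), whereas the Mild PE difference was 1.05 (SE 0.25, 2.07-fold, adjusted p = 0.101). The difference of Severe PE from Mild PE was −0.88 (95% interval −1.53 to −0.22, adjusted p = 0.238). None of these Nr4a1 differences passed.

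Egr2 had levels of 8.57, 8.42 and 8.78 in 18-h Vehicle rats, of 10.64, 10.61, 9.70 and 10.43 in 18-h Mild PE rats and of 10.08, 10.41, 11.27 and 9.28 in 18-h Severe PE rats. Both PE groups lay wholly above Vehicle. The Mild PE difference of 1.75 (SE 0.26, 3.37-fold) passed (adjusted p = 0.0484), and that of Severe PE, 1.67 (SE 0.46, 3.18-fold), did not (adjusted p = 0.0830), with an SD among Severe PE rats of 0.83 against 0.44 among Mild PE rats. The second Egr2 probeset, 1398266_a_at, differed by 0.99 (limma adjusted p = 0.168) in Mild PE and by 0.87 (adjusted p = 0.280) in Severe PE. Neither passed, and its Severe PE rats overlapped Vehicle. Egr3 differed by 0.36 (adjusted p = 0.573) in Mild PE and by 0.65 (adjusted p = 0.136) in Severe PE.

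Egr1, the only gene called at both doses at 2 h, was called at neither dose at 18 h, and its Vehicle rats were far apart. They had 10.51, 11.73 and 12.77, against 13.16, 12.48, 12.17 and 12.59 in Mild PE rats and 12.62, 13.27, 12.40 and 11.80 in Severe PE rats. The SD among the 18-h Vehicle rats was 1.13, against 0.41 among the 2-h Vehicle rats. The differences of 0.93 in Mild PE (95% interval −0.43 to 2.30) and 0.85 in Severe PE (−0.64 to 2.34) have wide intervals. Without Vehicle rat 1 they were 0.35 in Mild PE and 0.27 in Severe PE, and without Vehicle rat 3 they were 1.48 and 1.40, none of them called. The lowest of these rats, Vehicle rat 1, has 1 of the arrays with low 5′ signal. It was also the lowest of its group in Nr4a1, Nr4a3, Ier2 and Ier3, but the highest in Nr4a2, Myc and Klf4. Vehicle rat 3 was the highest in Egr1, Egr2, Nr4a3, Ier2 and Ier3. The part of RNA quality in these values was not tested beyond leaving those arrays out.

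Myc had levels of 9.41, 8.82 and 9.36 in 18-h Vehicle rats, of 10.40, 10.38, 9.64 and 10.34 in 18-h Mild PE rats and of 10.49, 10.91, 10.33 and 10.25 in 18-h Severe PE rats. Its Severe PE rise was 1.30 (SE 0.22, 2.46-fold, adjusted p = 0.0252), and its Mild PE difference was 0.99 (SE 0.25, 1.99-fold, adjusted p = 0.116). The Mild PE group, which had overlapped Vehicle in Myc at 2 h, no longer did. Ier3 had levels of 11.53, 11.67 and 12.31 in Vehicle rats and differed by 0.76 (adjusted p = 0.159) in Mild PE and by 0.66 (adjusted p = 0.191) in Severe PE. Ier2 lay between 12.06 and 12.74 in all 18-h rats, with differences of −0.04 (95% interval −0.49 to 0.41) in Mild PE and −0.13 (−0.59 to 0.33) in Severe PE, and Klf4 differed by 0.06 (−0.38 to 0.50) and −0.14 (−0.66 to 0.38). Between the doses at 18 h no gene was called, as for all probesets (0%), although 2 of the 10 genes and 4340 of all probesets had an unadjusted p under 0.05 in limma.

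At 18 h the 2 calls in Mild PE were both lost without any single rat other than Mild PE rat 3. In Severe PE, Nr4a3 was called whichever rat was left out, Nr4a2 was lost only without Vehicle rat 2, and Myc was lost without any single rat other than Severe PE rat 4. Without Severe PE rat 4, 4 genes were called, Egr2 being the additional one, and without Vehicle rat 2 Egr3 was called. Without the 4 arrays of low 5′ signal no gene was called in Mild PE, and Nr4a2 and Nr4a3 were in Severe PE.

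The direct test of whether the PE effect differed between the times was a contrast in 1 fit on all 22 arrays. For Severe PE the effect at 18 h was smaller than that at 2 h for 3 of the 10 genes, Egr1, Ier2 and Ier3, where 3.24% of all probesets were called lower. The changes were −2.33 for Egr1 (SE 0.56, adjusted p = 0.0190), −1.12 for Ier2 (SE 0.24, adjusted p = 0.00885) and −1.33 for Ier3 (SE 0.28, adjusted p = 0.00947). These 3 calls held under all 22 alternatives, with limma adjusted p between 0.00246 and 0.0495 for Egr1, between 0.00173 and 0.0289 for Ier2 and between 0.00574 and 0.0275 for Ier3. Every alternative kept 1 spread shared by the groups. The Egr1 SD ran from 0.04 in 2-h Mild PE to 1.13 in 18-h Vehicle. Nr4a1 changed by −1.41 without passing (adjusted p = 0.0613), and Myc by −0.41 (95% interval −1.11 to 0.29). For Mild PE no gene was called, where 0.419% of all probesets were called lower and 5 of the 10 genes and 4266 of all probesets had an unadjusted p under 0.05 in limma. The nearest was Ier2 with −0.95 (adjusted p = 0.0699), which was called once 18-h Vehicle rat 1 or all arrays of low 5′ signal were left out.

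**Figure D3:**
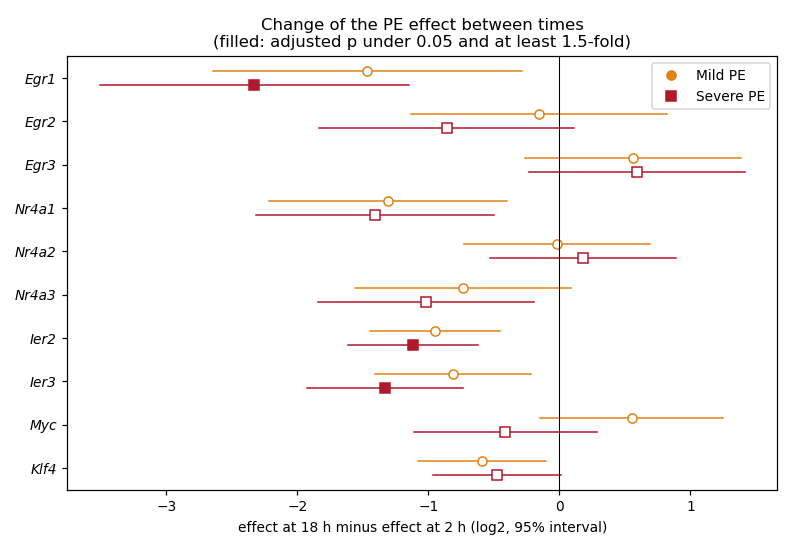
Effect of PE at 18 h minus its effect at 2 h (x axis, log2, with 95% intervals) for each of the 10 genes (y axis), circles for Mild PE and squares for Severe PE, filled where called changed. The filled squares are Egr1 at −2.33, Ier2 at −1.12 and Ier3 at −1.33, and no circle is filled.

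These contrasts hold 2 movements, that of the PE rats and that of the Vehicle rats. In Ier2, 18-h Severe PE rats differed from 2-h Severe PE rats by −0.15 (95% interval −0.50 to 0.20), and 18-h Vehicle rats from 2-h Vehicle rats by 0.97 (0.35 to 1.59). In Ier3 the 2 differences were −0.39 (−0.85 to 0.08) in Severe PE and 0.94 (0.30 to 1.59) in Vehicle. In Egr1 they were −0.87 (−1.56 to −0.18) in Severe PE and 1.46 (−0.20 to 3.12) in Vehicle. None of these differences between times passed by itself. Over the 10 genes the median difference of 18-h from 2-h Vehicle rats was 0.50, against 0.00 over all probesets, and 9 of 10 were positive. No gene was called there (0.0161% of all probesets were called in either direction), although 4 of the 10 genes and 4815 of all probesets had an unadjusted p under 0.05 in limma.

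Within a dose, Myc was the only gene called between the times in Mild PE, higher at 18 h by 0.93 (SE 0.21, 1.91-fold, adjusted p = 0.0372), where 5.45% of all probesets were called in either direction. In Severe PE only Nr4a3 was called, with a difference of 18 h from 2 h of −0.73 (SE 0.16, adjusted p = 0.0411), where 6.30% of all probesets were called in either direction. Its further probesets differed by −0.58 (1393389_at, limma adjusted p = 0.0691) and −0.35 (1369217_at, adjusted p = 0.422), and neither passed. Without any single rat other than 18-h Mild PE rat 3 the Myc call was lost. The Nr4a3 call was lost without any single rat, and Egr1 was called in its place without 18-h Severe PE rat 2.

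Ranked over the 6 groups, 2-h Severe PE had the highest mean for Egr1, Egr2, Nr4a2, Nr4a3, Ier2, Ier3 and Myc, 2-h Mild PE for Nr4a1 and Klf4, and 18-h Severe PE for Egr3. The lowest mean was that of 2-h Vehicle for 8 of the 10 genes, of 18-h Vehicle for Nr4a2 and of 2-h Mild PE for Egr3. Most neighbours in these orders overlapped. The gaps without overlap were those between 2-h Severe PE and 2-h Mild PE for Egr1, between 2-h Mild PE and 18-h Mild PE for Nr4a1, between 18-h Mild PE and 2-h Mild PE for Myc, between 18-h Mild PE and 18-h Vehicle for Nr4a3, and, at the lower end, below 2-h Mild PE and below 18-h Vehicle for Egr2 and Ier3, below 18-h Severe PE for Ier2 and below 2-h Severe PE for Klf4. The span of the 6 means was 3.22 for Nr4a3, 3.18 for Egr1, 2.53 for Egr2, 2.36 for Nr4a1, 1.99 for Ier3 and 1.71 for Myc, and under 1 for Ier2, Egr3, Nr4a2 and Klf4.

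The means of Egr1 and Nr4a1 ran differently over the doses, as the difference of their log2 levels within each rat shows, although the 2 probesets cannot be set against each other as absolute levels. Egr1 minus Nr4a1 was 1.40 to 2.81 in 2-h Severe PE rats, against 0.24 to 0.58 in 2-h Mild PE rats. At 18 h it was 1.73 to 1.95 in Severe PE rats, against 0.61 to 1.60 in Mild PE rats. At both times the doses did not overlap, while the Vehicle rats spread over −0.34 to 0.75 at 2 h and 0.43 to 2.05 at 18 h. Myc minus Nr4a1 showed the same at 2 h, with −1.59 to 0.02 in Severe PE rats, against −3.43 to −2.45 in Mild PE rats. These pairs were chosen after their values were seen, and no test was made of them.

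**Figure D4:**
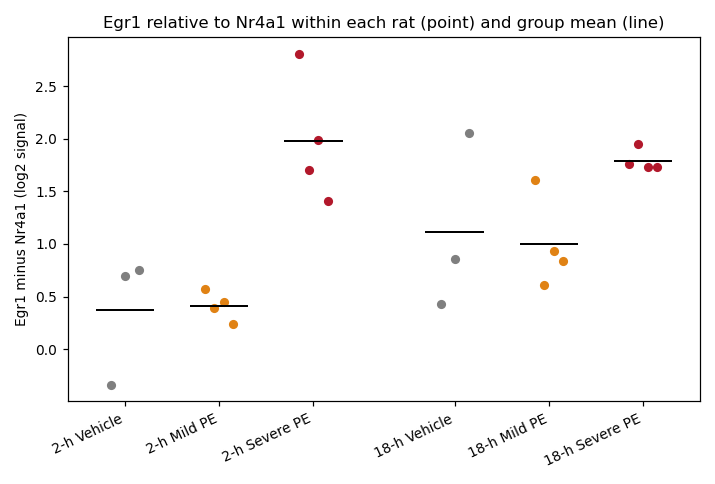
Egr1 minus Nr4a1 in log2 signal (y axis) in each rat (points) with group means (lines), over the 6 groups (x axis). Severe PE rats lie above Mild PE rats at both times, at 1.40 to 2.81 against 0.24 to 0.58 at 2 h.

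Single rats recurred at the ends of their groups. 18-h Mild PE rat 3 was the lowest of its group in 6 genes (Egr1, Egr2, Nr4a1, Nr4a3, Ier3 and Myc) and rat 1 the highest in 6. 18-h Severe PE rat 4 was the lowest in 6 genes (Egr1, Egr2, Egr3, Nr4a1, Ier3 and Myc) and rat 2 the highest in 6. At 2 h Severe PE rat 2 was the highest of its group in 5 genes. Over all 22 rats, which share groups and arrays, Pearson's r was 0.963 between Egr1 and Ier3, 0.893 between Egr2 and Nr4a3 and 0.851 between Egr1 and Egr2, against 0.265 between Nr4a1 and Myc and 0.142 between Egr1 and Egr3.

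The 2 genes most like each member over the 22 rats were taken among 11072 named genes. Egr1 (r = 0.906 and 0.873) and Ier3 (r = 0.967 and 0.879) had the same pair, Junb and Fos, which encode partners in the AP-1 dimer. Egr2 was nearest to Ccl2 (r = 0.956), the monocyte chemoattractant, and Rgs16 (0.930), a regulator of G protein signalling. Nr4a1 was nearest to Dusp5 (0.905), a nuclear ERK phosphatase, and Tnf (0.883). Nr4a3 was nearest to Noct (0.904), which encodes nocturnin, and Ccl3 (0.892), a chemokine. Myc was nearest to Ch25h (0.929), which makes 25-hydroxycholesterol, and Adm (0.925), which encodes adrenomedullin. The likeness was weaker for Klf4 (Spry2, 0.767, and Gsk3a, 0.762), Ier2 (Zfp672, 0.797, and Cfp, 0.785) and Nr4a2 (Mospd2 and C5, both 0.753), and for the dim Egr3 it fell on Thop1 (0.864) and Atp5f1d (0.852). Each r is a description over rats of the same groups.

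Several AP-1 factors are themselves immediate early genes. Of 10 measured, 3 rose in 2-h Mild PE, against 0.251% of all probesets. These were Atf3 by 1.80 (limma adjusted p = 0.0268), Fosl2 by 1.31 (adjusted p = 0.0335) and Junb by 1.76 (adjusted p = 0.0423). The median of the list was 1.10 against 0.00 over all probesets. In 2-h Severe PE the median was 1.95 and all 10 differences were positive, but only Atf3, a stress-induced factor, passed (2.71, adjusted p = 0.0230). Fos, the classic member, had an adjusted p of 0.0850 in Mild PE (1.55) and of 0.0608 in Severe PE (2.86), and rose in Severe PE relative to Mild PE by 1.31 (adjusted p = 0.0208). At 18 h none passed in Mild PE, where 5 of 10 and 5793 of all probesets had an unadjusted p under 0.05 in limma. In 18-h Severe PE Fosl1, a later Fos family member, rose by 2.63 (limma adjusted p = 0.00631). Junb rose there by 1.09 (adjusted p = 0.0246). The Severe PE effect was lower at 18 h than at 2 h for Fosb (−2.40, limma adjusted p = 0.0119), Junb (−1.28, adjusted p = 0.0120) and Atf3 (−1.65, adjusted p = 0.00575). These were 3 of 10, against 3.24% of all probesets. Within a dose, 3 of the 10 were called higher at 18 h than at 2 h in Mild PE and 1 lower in Severe PE. In these comparisons 5.45% and 6.30% of all probesets were called in either direction.

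Of 33 other immediate early genes measured, 3 rose in 2-h Mild PE (Dusp5, Zfp36 and Pim1), against 0.251% of all probesets. In 2-h Severe PE 1 rose, against 0.0226% of all probesets. It was Hbegf (1.46, limma adjusted p = 0.0148), which encodes an EGF receptor ligand. Areg, another such ligand, rose in 2-h Severe PE relative to 2-h Mild PE by 1.94 (adjusted p = 0.0140), as did Phlda1 by 0.76 (adjusted p = 0.0421). At 2 h the list's median was 0.53 for Mild PE and 0.72 for Severe PE, and at 18 h it was 0.27 for Mild PE and 0.37 for Severe PE. At 18 h 1 gene rose in each dose, Dusp5 by 0.66 (adjusted p = 0.0491) in Mild PE and Gadd45g by 1.20 (adjusted p = 0.0104) in Severe PE. For 6 of the 33 the Severe PE effect was lower at 18 h than at 2 h, against 3.24% of all probesets. Of these Zfp36, whose protein destabilises AU-rich mRNAs, changed by −1.69 (limma adjusted p = 0.00213) and Gadd45b by −1.14 (adjusted p = 0.00712).

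Srf, Elk and Creb factors act on immediate early promoters. None of 14 upstream genes (members of these families and their cofactors) passed in any comparison with Vehicle, with 2-h medians of 0.17 for Mild PE and 0.08 for Severe PE. At an unadjusted p under 0.05 in limma it was 1 of 14 for 2-h Mild PE and 2 for 2-h Severe PE. At 18 h it was 4 for each dose. Over all probesets the counts at that limit were 4106 for 2-h Mild PE and 2380 for 2-h Severe PE. At 18 h they were 5793 for Mild PE and 7869 for Severe PE. Srf itself differed at 2 h by 0.32 (adjusted p = 0.231) in Mild PE and by 0.53 (adjusted p = 0.256) in Severe PE. Of 10 measured Egr corepressors and Egr1 targets none passed at 2 h (3 in Mild PE and 2 in Severe PE at an unadjusted p under 0.05 in limma). Among them Nab2, the corepressor that Egr1 induces, differed by 0.83 (adjusted p = 0.116) in 2-h Mild PE and by 1.56 (adjusted p = 0.0886) in 2-h Severe PE. In 18-h Severe PE, F3, which encodes tissue factor, rose by 2.00 (adjusted p = 0.00652) and Pdgfa fell by 0.75 (adjusted p = 0.0160). In that comparison 1215 of all probesets were called lower. For Nab2 (−1.14, adjusted p = 0.00418), Pdgfa (−1.002, adjusted p = 0.0129) and Vegfa (−0.91, adjusted p = 0.0208) the Severe PE effect was lower at 18 h than at 2 h.

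Of 12 other Krüppel-like factors, 1 fell in 18-h Mild PE, Klf9, a glucocorticoid-responsive factor, by 1.11 (adjusted p = 0.0286), 1 fell in 2-h Severe PE relative to 2-h Mild PE, Klf12, by 1.15 (adjusted p = 0.0379), and for Klf2, a flow-responsive factor of endothelium, the Severe PE effect was lower at 18 h than at 2 h (−0.98, adjusted p = 0.00108). Of 12 Myc network partners, Mga rose in 2-h Severe PE relative to 2-h Mild PE by 1.80 (adjusted p = 0.0237) and Mxd3 fell in 18-h Mild PE by 1.22 (adjusted p = 0.0286).

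Some Myc target genes rose at 18 h. Of 15 measured none passed at 2 h, with medians near 0 in Mild PE and of 0.09 in Severe PE. In each dose 2 had an unadjusted p under 0.05 in limma, against 4106 of all probesets in Mild PE and 2380 in Severe PE. At 18 h all 15 differences were positive at both doses, with medians of 0.63 in Mild PE and 0.92 in Severe PE, and 1 rose in Mild PE and 8 in Severe PE. Over all probesets 0.506% were called higher in Mild PE and 3.21% in Severe PE. The 1 in Mild PE was Gnl3, which encodes nucleostemin, by 0.64 (adjusted p = 0.0417). Those in Severe PE included Srm, spermidine synthase, by 1.61 (adjusted p = 0.00601), Nme1, a nucleoside diphosphate kinase, by 1.43 (adjusted p = 0.00646), Odc1, the rate-limiting enzyme of polyamine synthesis, by 1.86 (adjusted p = 0.00848), and Ldha, lactate dehydrogenase A, by 0.92 (adjusted p = 0.0142). For 7 of the 15 the Severe PE effect was higher at 18 h than at 2 h, with 773 of all 31042 probesets called higher. Nme1 led these 7 (1.42, limma adjusted p = 0.000304). The Myc effect itself did not pass that test (−0.41, given above).

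Cell type markers were set beside these values. At 2 h none of the 7 neutrophil, 7 macrophage, 7 lymphocyte, 8 endothelium, 8 smooth muscle and fibroblast, 8 lung epithelium and 2 erythroid markers measured passed in either dose against Vehicle, and of these 47 markers 11 in Mild PE and 3 in Severe PE had an unadjusted p under 0.05 in limma. The summed signal of the neutrophil markers was 6710 to 20990 in Mild PE and 5502 to 15020 in Severe PE rats at 2 h, against 5324 to 9694 in 2-h Vehicle rats, and at 18 h it was 14700 to 36300 in Mild PE and 20310 to 42220 in Severe PE rats, against 13510 to 25910 in Vehicle rats. That of the macrophage markers was 13590 to 16540 in Mild PE and 11780 to 18430 in Severe PE rats at 2 h, against 9859 to 13100 in 2-h Vehicle rats. At 18 h it was 17100 to 24950 in Mild PE and 19850 to 24660 in Severe PE rats, against 12020 to 14440 in Vehicle rats. Cd163 and Cd14 rose there in Severe PE, 2 of 7, against 3.21% of all probesets. The endothelium sum was 54250 to 58220 in Mild PE and 43940 to 49230 in Severe PE rats at 2 h, against 50010 to 53710 in 2-h Vehicle rats. These 3 ranges did not overlap, with Mild PE highest and Severe PE lowest, below Vehicle. The Nr4a1 mean at 2 h was also highest in Mild PE, with every Severe PE rat above every Vehicle rat. A link between Nr4a1 and the endothelium sum was not tested. The lung epithelium sum was 147600 to 154400 in 2-h Severe PE rats, against 141800 to 145700 in 2-h Mild PE rats, and 144300 to 151700 in 2-h Vehicle rats. In 18-h Severe PE 1 of the 8 lung epithelium markers was called higher than in 18-h Vehicle, against 3.21% of all probesets. At 18 h the endothelium sum was 40570 to 50080 in 18-h Mild PE and 36770 to 43780 in 18-h Severe PE rats, against 53920 to 56150 in 18-h Vehicle rats, with Tie1 and Vwf lower in Severe PE, 2 of 8. The lymphocyte sum was 2637 to 4000 in 18-h Severe PE rats, against 5711 to 7296 in 18-h Vehicle rats. Cd3g and Cd79b were lower there, 2 of 7. Over all probesets 1215 were called lower in 18-h Severe PE than in 18-h Vehicle. No list had a marker at the floor in all rats of a group, and the part of cell composition in the values of the 10 genes was not tested.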

How the data were processed

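The authors deposited linear array intensities, 1 table of 31099 probesets for 22 arrays. Their methods name GC-RMA, but the deposited intensities have a trimmed mean near 500 on every array, and the summary method behind them is not given in the sources used here. The 57 control probesets were left out. Signals under 16 (13.6% to 17.3% of probesets per array) were set to 16, taken to log2 and quantile normalized. Platform annotation gave 1 symbol for 20826 probesets, several for 436 and none for 9780. R 4.3.3 and limma 3.58.1 (lmFit, eBayes) fitted the 2 groups of each comparison, as the methods' pairwise tests did, and 1 model of 6 means on 22 arrays for the change of an effect between times, 11 comparisons in all, each adjusted by Benjamini-Hochberg over all probesets. The fit was tested on simulated data. With 3 or 4 arrays in a group, precision is limited by their number. Genes named beside the 10 come from those of each companion list that passed, at most 4 per list and comparison by smallest adjusted p. Not every passing gene is named. The 2 most similar genes of each member are named as well. Fos, Srf and Nab2 were added after their values were seen. The 10 genes and the lists were chosen with earlier results of these data known. Alternatives were other normalizations, a floor of 64, dim probesets (mean log2 under 6) left out, a variance trend, the methods' t-test, 1 fit on all arrays, a replicate block, all probesets of a gene averaged, and the removal of each rat in turn or of the 4 arrays of low 5′ signal.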

Additional observations from a re-analysis of the deposited data

Results flagged for a closer look

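Among 40 sets of 4 rats (10 genes in 4 PE groups), 1 held a rat far from the others. Myc in 18-h Mild PE was 9.64 in rat 3, against 10.34 to 10.40 in the other 3 rats. Chance puts about 1 in 20 such sets past this limit.

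The Severe PE effect differed between the times, by the test of the difference itself, for 3 genes. It was lower at 18 h than at 2 h by −2.33 for Egr1 (limma adjusted p = 0.0190), by −1.12 for Ier2 (adjusted p = 0.00885) and by −1.33 for Ier3 (adjusted p = 0.00947), in log2 units. All 4 Severe PE rats lay above all 3 Vehicle rats in each of these genes at 2 h, and none of the 3 genes had such a gap at 18 h.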

How the results depend on the processing

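The counts of the 10 genes called changed are given here where an alternative moved them by over 1.5 times. In 2-h Mild PE (6 called) the methods' t-test left 1 and the replicate block 0. In 2-h Severe PE (1 called) median centring gave 4, leaving out dim probesets 5 and 1 fit on all arrays 7, and the t-test, the replicate block and leaving out the arrays of low 5′ signal gave 0. For 2-h Severe PE against 2-h Mild PE (1 called) median centring and leaving out dim probesets gave 2 each and the replicate block 0. In 18-h Mild PE (2 called) no further normalization gave 1, 1 fit on all arrays 5, and a floor of 64, the t-test, the replicate block, the mean of all probesets and leaving out the arrays of low 5′ signal 0. In 18-h Severe PE (3 called) the replicate block gave 0. For 18-h against 2-h Vehicle (0 called) 1 fit on all arrays gave 2. For 18-h against 2-h Mild PE (1 called) leaving out dim probesets gave 2, and the t-test, the replicate block and leaving out the arrays of low 5′ signal 0. For 18-h against 2-h Severe PE (1 called) median centring, a floor of 64, the t-test, 1 fit on all arrays, the replicate block, the mean of all probesets and leaving out the arrays of low 5′ signal gave 0. The change of the Mild PE effect (0 called) gave 1 without the arrays of low 5′ signal.

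With single rats left out, the counts ran over 1 to 5 in 2-h Mild PE, 0 to 2 in 2-h Severe PE, 0 to 1 between the 2-h doses, 0 to 2 in 18-h Mild PE, 2 to 4 in 18-h Severe PE, 0 to 0 between the 18-h doses and between the Vehicle groups, 0 to 1 between times in Mild PE and in Severe PE, 0 to 1 for the change of the Mild PE effect and 3 to 4 for that of the Severe PE effect. Of 2000 values of single genes under alternatives, 1839 stayed on their side of the threshold, 121 lost it, 40 gained it and 0 of those called changed sign. The cause of these moves was not tested. Over all probesets the calls ran over 0 to 247 in 2-h Mild PE (103), 0 to 188 in 2-h Severe PE (7), 0 to 1589 in 18-h Mild PE (321) and 0 to 3838 in 18-h Severe PE (2212).

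Replicate numbers of the labels did not pair the rats: over 51 pairs the correlation of deviations was −0.273 to 0.123 (median −0.01), so the block result describes a number only. Signal near the floor limits what can be said of Egr3, Nr4a2 and the dim probesets.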
